A study of Mus musculus with 10 samples.

Results

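The genes whose symbols start with Nduf encode most nuclear subunits of respiratory complex I and a group of its assembly factors. They were chosen by that symbol rule, without use of any measured value, and number 49 of the 32889 genes in the table. Gene expression was measured by RNA sequencing of total RNA from brown adipose tissue, a fat depot that makes heat, of wild-type C57BL/6J mice. The 10 libraries form 3 groups: 3 libraries from obesity-prone mice on a high-fat diet, 3 from obesity-resistant mice on the same diet, and 4 from control mice on regular chow. The labels give neither the age of the mice, nor the time on the diet, nor whether each library is a separate animal, so that p-values measure only the spread between these samples. Total counts lay between 35583997 and 37327770 per library. The 10 brown adipocyte markers were all detected in all libraries, with Ucp1, the uncoupling protein that defines the tissue, at 2880 CPM (the count scaled to library size) or more.

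Complex I takes electrons from NADH, passes them through flavin and iron-sulfur clusters to ubiquinone, and pumps protons across the inner mitochondrial membrane. Its peripheral arm reaches into the matrix and holds the redox centres. Its membrane arm pumps the protons. Core subunits carry out the reaction, accessory subunits surround and stabilise them, and assembly factors build or modify the complex without staying in it. In brown adipocytes the proton gradient that the chain builds is dissipated as heat by Ucp1. Among the 49 genes, 7 encode core subunits of the peripheral arm, 9 accessory subunits of that arm, 9 accessory subunits of the proximal membrane arm and 11 of the distal membrane arm. A further 8 are the assembly factors Ndufaf1 to Ndufaf8. Ndufa4, later assigned to complex IV, and Ndufa4l2, a hypoxia-inducible relative, stand outside complex I, and Ndufa11b, Ndufb4b and Ndufb4c are copies of subunit genes. The core membrane-arm subunits that the mitochondrial genome encodes were not analysed here, nor was Ndufb1.

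The promoters of 5 assembly factors or subunits are shown because they belong to the 4 genes that differed between obesity-prone and chow libraries and to Ndufaf4, whose difference from chow had the other sign. Each is the plus strand or minus strand sequence in the direction of transcription. It runs from 250 bases before to 50 bases after the start used by the RefSeq promoter record (GRCm38.p6). For Ndufaf1 and Ndufaf7 that start differs from the outer end of the gene position given below. Capitals mark exact matches, on either strand, to the letters searched for nuclear respiratory factor 1 (NRF1), Yin Yang 1 (YY1) and ETS factors such as GABP, which are known regulators of respiratory chain genes.
Ndufaf1, chr2:119662785-119663084, minus strand: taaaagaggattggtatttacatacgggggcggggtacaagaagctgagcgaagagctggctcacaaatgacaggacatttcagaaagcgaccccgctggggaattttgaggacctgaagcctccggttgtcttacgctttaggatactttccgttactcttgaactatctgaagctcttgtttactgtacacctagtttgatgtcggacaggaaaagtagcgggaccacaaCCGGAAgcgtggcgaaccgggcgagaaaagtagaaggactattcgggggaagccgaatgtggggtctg
Ndufaf3, chr9:108567387-108567686, minus strand: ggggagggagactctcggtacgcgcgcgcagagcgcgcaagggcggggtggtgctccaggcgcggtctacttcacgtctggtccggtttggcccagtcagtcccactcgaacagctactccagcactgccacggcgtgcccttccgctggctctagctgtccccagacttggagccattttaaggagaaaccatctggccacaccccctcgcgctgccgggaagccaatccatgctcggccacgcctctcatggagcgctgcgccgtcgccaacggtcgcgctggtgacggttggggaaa
Ndufaf7, chr17:78936885-78937184, plus strand: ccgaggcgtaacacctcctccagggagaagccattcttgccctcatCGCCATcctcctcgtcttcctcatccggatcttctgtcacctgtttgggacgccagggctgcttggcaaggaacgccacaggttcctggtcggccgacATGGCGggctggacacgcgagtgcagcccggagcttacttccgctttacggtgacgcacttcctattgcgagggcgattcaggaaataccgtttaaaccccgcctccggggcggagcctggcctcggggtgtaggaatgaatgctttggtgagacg
Ndufc2, chr7:97399753-97400052, plus strand: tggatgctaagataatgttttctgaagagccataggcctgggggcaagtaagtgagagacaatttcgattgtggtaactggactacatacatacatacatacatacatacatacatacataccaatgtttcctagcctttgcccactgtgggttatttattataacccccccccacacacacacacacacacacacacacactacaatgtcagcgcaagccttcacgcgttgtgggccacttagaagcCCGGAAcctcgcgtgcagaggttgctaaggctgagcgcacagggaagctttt
Ndufaf4, chr4:24897833-24898132, plus strand: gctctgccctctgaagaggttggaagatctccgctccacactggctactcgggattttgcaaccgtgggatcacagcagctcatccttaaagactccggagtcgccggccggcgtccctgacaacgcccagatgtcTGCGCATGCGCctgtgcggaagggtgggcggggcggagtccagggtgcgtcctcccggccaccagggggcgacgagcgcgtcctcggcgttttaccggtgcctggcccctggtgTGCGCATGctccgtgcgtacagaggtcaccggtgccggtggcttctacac
Ndufaf4 held the longer NRF1 motif, which is its first run of capitals without the leading T, and the shorter form TGCGCATG within that run and again as the second run. Ndufaf7 held the shorter YY1 letters ATGGCG on both strands, and Ndufaf1 and Ndufc2 the shorter ETS letters CCGGAA. None of the letters searched is in the window shown for Ndufaf3.

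A promoter was on record for 41 of the 49 genes and for 17491 coding genes in all. The longer NRF1 motif was present in 3 of the 41 (Ndufa11, Ndufaf4 and Ndufaf5), a share of 7.32% against 1.47% of all coding genes. The shorter TGCGCATG, which can overlap it, was present in 5 (12.2% against 2.94%). The YY1 letters AAGATGGCG were present in 6 (14.6% against 2.14%), among them Ndufs4, Ndufs6 and Ndufa9, and the shorter ATGGCG in 13 (31.7% against 12.4%). The ETS letters CCGGAAGT were present in 1 (2.44% against 5.69%) and the shorter CCGGAA in 12 (29.3% against 20.9%). The letters of oestrogen-related receptors, TCAAGGTCA, were present in 0 of 41 and in 0.377% of all, and the shorter AAGGTCA in 3 (7.32% against 4.73%). The median GC content of these promoters was 59.3%, against 57.3% over all coding genes. These matches are descriptions of the letters and not of binding.

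The 49 genes lie on 17 chromosomes. Of 46 with a gene model to compare, 13 start within 1000 bases of a coding gene that runs the other way, 28.3% against 6.78% of 21951 coding genes. Ndufa7 starts 10 bases from the ribosomal protein gene Rps28 and Ndufaf7 starts 70 bases from Cebpz. An overlap with a gene on the opposite strand was present for 18 of 46 (39.1%, against 36.7% of all), among them Ndufaf3 with Impdh2 and Ndufb11 with Rbm10. No strand setting is stated for the counting, so reads of overlapping genes cannot be told apart. Ndufb4c is identical to Ndufb4 over 390 aligned bases and Ndufa11b matches Ndufa11 at 94.8%, which makes the split of reads between them uncertain. Ndufs3, Ndufb11, Ndufa7 and Ndufb7 resemble pseudogenes that are not named in the table, and their values carry the same doubt.

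Levels can be compared between genes in FPKM, the authors' value per length of transcript and depth of library. Complex IV-associated Ndufa4 was highest, at 624 ± 141 FPKM (SD, n = 10 libraries). Ndufb8, in the distal membrane arm, followed at 494 ± 105 FPKM, and Ndufa3, in the proximal membrane arm, at 371 ± 62.6 FPKM. The 36 canonical subunits that were listed all exceeded the 8 assembly factors. The median level was 165 FPKM for core subunits (lowest for Ndufs1, at 129), 148 FPKM for accessory peripheral-arm subunits (53.0 for Ndufs4 to 306 for Ndufa12), 153 FPKM for proximal membrane-arm subunits (27.7 for Ndufa11 to 371 for Ndufa3) and 168 FPKM for distal ones (61.5 for Ndufb3 to 494 for Ndufb8). For assembly factors the median level was 12.7 FPKM, from 6.52 ± 0.826 FPKM for Ndufaf2, which acts late in assembly at the place that Ndufa12 takes, to 21.3 ± 4.37 FPKM for Ndufaf1. Ndufa4l2 stood at 8.07 ± 1.17 FPKM and Ndufb4c at 34.3 ± 7.72 FPKM. The copies Ndufa11b and Ndufb4b did not pass the filter on low counts, which left 47 of the 49 genes among the 19676 tested.

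**Figure D1:**
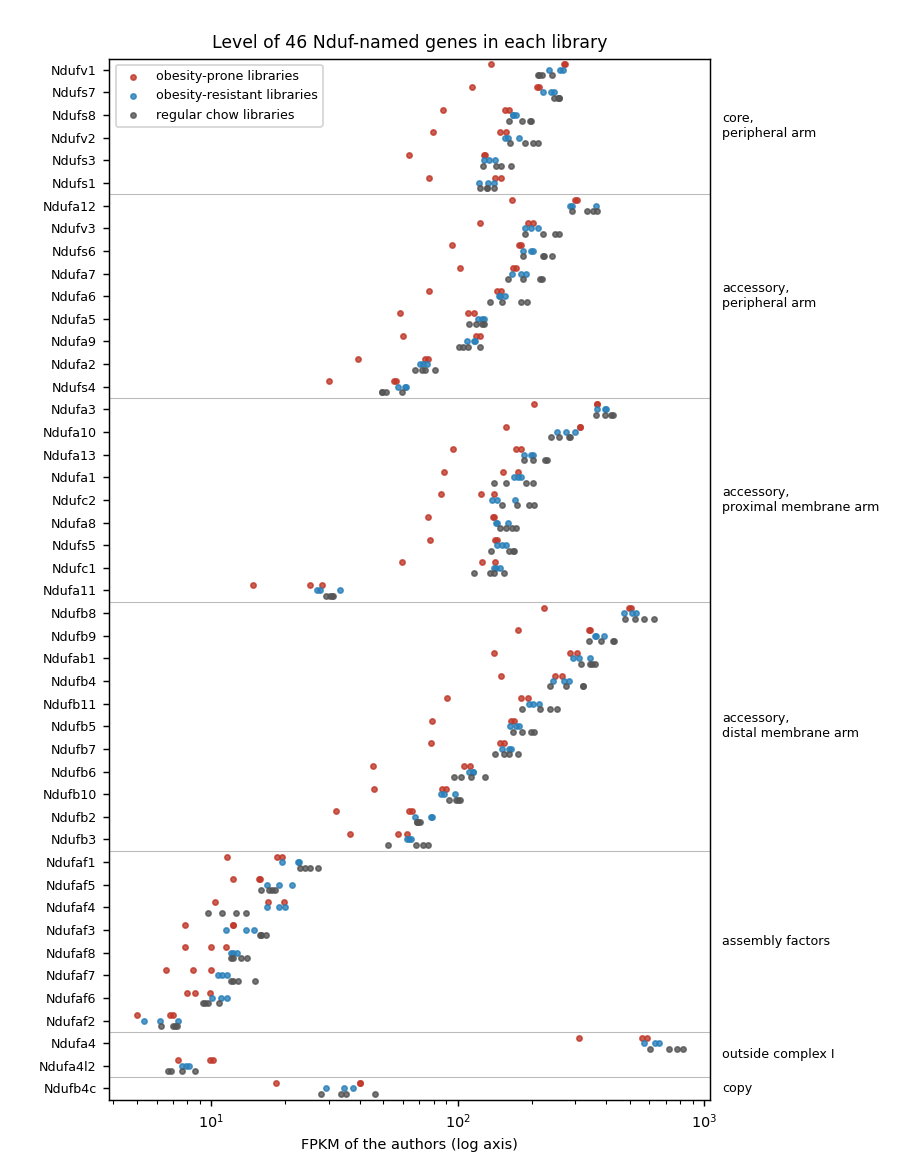
FPKM of 46 of the 47 genes that passed the filter (log axis), 1 point a library, by class and ordered by mean level within a class. Colours mark obesity-prone, obesity-resistant and chow libraries. Subunits lie between 27.7 and 494 FPKM on average and assembly factors between 6.52 and 21.3 FPKM.

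Obesity-prone replicate 3 stood apart from the other 9 libraries. Each gene was set against its mean over the chow libraries, on the scale of log2(CPM + 0.5). The median difference over the 47 genes was -0.23, -0.18 and -1.11 in obesity-prone replicates 1 to 3, then -0.13, -0.12 and -0.15 in obesity-resistant replicates 1 to 3, and 0.04, 0.01, 0.16 and -0.21 in chow replicates 1 to 4. The median over all genes tested lay between -0.02 and 0.01 in each library. In obesity-prone replicate 3 the genes thus stood at 46.3% of their chow level by the median, with quartiles of -1.23 and -0.95, and 46 of 47 lay below 0. That library had the lowest CPM of all 10 in 46 of 47 genes (97.9%), against 22.5% of all genes tested. Ndufa4l2 was the exception, with its highest CPM there.

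In CPM of each library's total, without normalisation between libraries, the 49 genes summed to 5704, 5659 and 2981 CPM in obesity-prone replicates 1 to 3, against 5602, 5983 and 5814 in obesity-resistant replicates and 6231, 5866, 6487 and 5390 in chow replicates 1 to 4. Only obesity-prone replicate 3 lay outside the range of the other libraries by more than the spread within the chow group. Obesity-prone replicates 1 and 2 lay within the chow range. In tissue RNA, fewer cells of a type and less RNA per cell cannot be told apart.

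**Figure D2:**
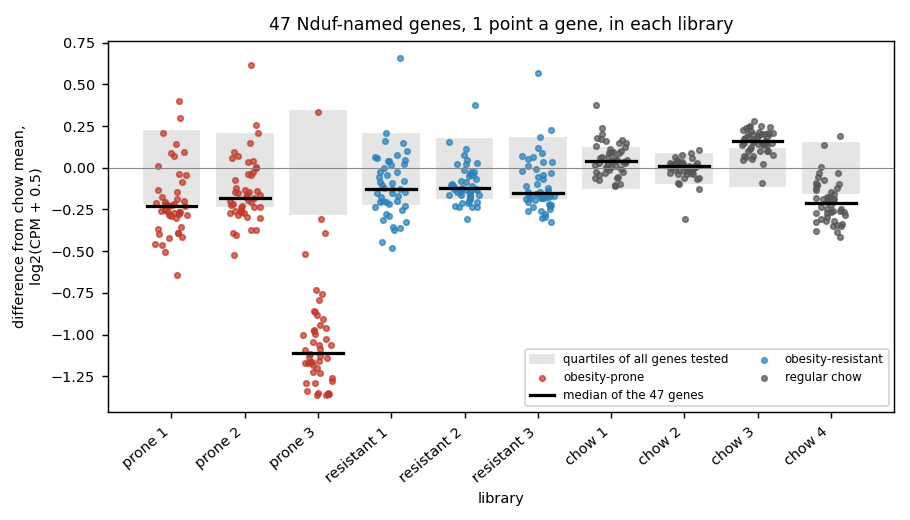
Difference of each of the 47 genes from its chow mean, in log2(CPM + 0.5), 1 point a gene, for each library; black bars are medians and grey boxes the quartiles of all genes tested. The median of obesity-prone replicate 3 is -1.11, and those of the other 9 libraries lie between -0.23 and 0.16.

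Some markers of other cells and of the tissue also stood apart in that library, while endothelial and skeletal muscle markers did not. The summed CPM of 7 erythrocyte markers was 22200 in obesity-prone replicate 3, against 708 to 6160 in the other 9 libraries. The summed CPM of white adipocyte-selective markers, of which 7 were tested, was 1660 there and 201 to 803 elsewhere, with the adipocyte hormone gene Lep at 395 CPM and Npr3 at 808 CPM. The 10 macrophage markers summed to 517 CPM there, against 120 to 340 CPM elsewhere, and 6 endothelial markers to 1090 CPM, against 580 to 1090 CPM elsewhere. In obesity-prone against chow libraries, edgeR called 2 white adipocyte markers (Lep and Npr3) and 3 macrophage markers (Lyz2, Gpnmb and Tyrobp) higher. These 5 were picked after their values were seen, and 0 of them were called without that library (adjusted p from 0.096 to 0.23). The white adipocyte list was mixed, with log2 fold changes of -1.37 for Retn, -1.32 for Agt and -0.42 for Hoxc8, so that 3 of 7 lay below 0, and its median was 0.02 without that library. In the macrophage list 10 of 10 lay above 0, with a median of 1.37, and of 0.95 without that library. Macrophage sums were 340 and 179 CPM in obesity-prone replicates 1 and 2, against 124 to 210 CPM in chow libraries. Ucp1 stood at 6810, 8460 and 2880 CPM in obesity-prone replicates 1 to 3, against 8650, 9750 and 9140 CPM in obesity-resistant and 6240, 8770, 9380 and 10300 CPM in chow replicates (adjusted p = 0.32 for obesity-prone against chow, edgeR). Skeletal muscle markers varied within groups, with sums of 1.60 to 72.2 CPM in obesity-prone, 2.84 to 742 CPM in obesity-resistant and 1.12 to 873 CPM in chow libraries. With a skeletal muscle score as a covariate, the median log2 fold change of the 47 genes in obesity-prone against chow libraries was -0.46, as without it, while edgeR called 0 of them. The part of the other cells in the complex I values was not tested.

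The comparison of obesity-prone with chow libraries asked how brown fat of mice prone to diet-induced obesity differs from that of controls. In obesity-prone libraries 4 of the 47 genes were lower at an adjusted p below 0.05 (8.51%), by edgeR's quasi-likelihood test with Benjamini-Hochberg adjustment over all genes, and 0 were higher. Over all genes 7.0% were called, 3.29% lower and 3.71% higher. The 4 were the assembly factors Ndufaf1, Ndufaf3 and Ndufaf7 and the membrane-arm subunit Ndufc2. The median log2 fold change of the 47 genes was -0.46, against 0.00 over all genes. It was below 0 in 45 of 47 (95.7%, against 49.4% of all genes), and 27 (57.4%) had an unadjusted p below 0.05, against 28.1% of all genes.

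Ndufaf7, a methyltransferase that modifies a complex I subunit during assembly (identifier 73694, chromosome 17, 78937106 to 78948052 in GRCm38.p6), stood at 13.6, 16.5 and 10.7 CPM in obesity-prone libraries, against 19.9, 21.6, 25.7 and 19.4 CPM in chow libraries. All obesity-prone values lay below all chow values, and the log2 fold change was -0.67 ± 0.15 (SE, edgeR adjusted p = 0.031), or 62.8% of the chow level. Ndufaf3, which acts early in assembly together with Ndufaf4 (identifier 66706, chromosome 9, 108565587 to 108567436), stood at 12.2, 12.7 and 7.69 CPM in obesity-prone and 16.8, 17.1, 18.2 and 15.9 CPM in chow libraries. Its log2 fold change was -0.65 ± 0.16 (edgeR adjusted p = 0.044), and the groups did not overlap. Ndufaf1, a member of the complex that assembles the membrane arm (identifier 69702, chromosome 2, 119655446 to 119662839), stood at 24.3, 26.7 and 15.2 CPM in obesity-prone and 34.9, 34.4, 39.6 and 30.6 CPM in chow libraries. Its log2 fold change was -0.66 ± 0.17 (edgeR adjusted p = 0.047), again without overlap.

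Ndufc2, a subunit of the proximal membrane arm (identifier 68197, chromosome 7, 97400003 to 97407800), stood at 83.9, 80.1 and 49.8 CPM in obesity-prone libraries, against 130, 114, 129 and 92.3 CPM in chow libraries. All obesity-prone values lay below the lowest chow value, which was that of replicate 4. The log2 fold change was -0.71 ± 0.18 (edgeR adjusted p = 0.047), the largest fall of the 47 genes.

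All 4 calls depended on single libraries. Without obesity-prone replicate 3, edgeR called 0 of the 47 genes and 19 (40.4%, against 22.5% of all genes) had an unadjusted p below 0.05 (2.67% of all genes were called, 1.58% higher and 1.09% lower), and the median log2 fold change was -0.22, with 39 of 47 below 0. The log2 fold changes were then -0.52 for Ndufaf7, -0.45 for Ndufaf3, -0.45 for Ndufaf1 and -0.50 for Ndufc2 (edgeR adjusted p = 0.065, 0.059, 0.061 and 0.078). Leaving out obesity-prone replicate 1, chow replicate 1, 2 or 3, or any 1 obesity-resistant library also ended all 4 calls, and over all single libraries left out the adjusted p of the 4 genes lay between 0.017 and 0.13. They were kept without obesity-prone replicate 2, where 7 of 48 genes were lower (3.91% of all genes), and without chow replicate 4. DESeq2 on all libraries called 7 of 47 lower (6.68% of all genes), adding Ndufaf8, Ndufs7 and Ndufv2.

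**Figure D3:**
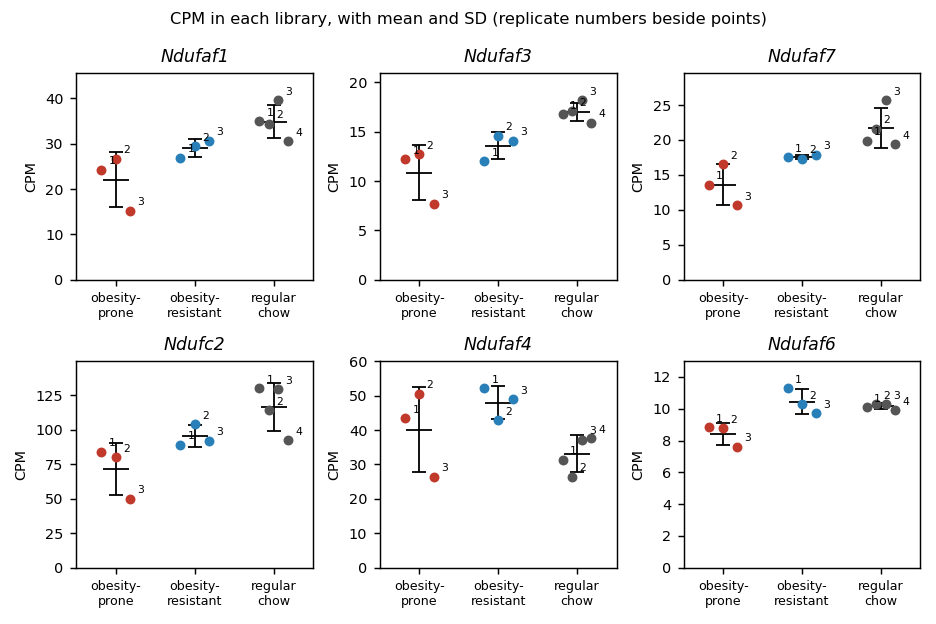
CPM of the 4 genes called lower in obesity-prone against chow libraries, and of Ndufaf4 and Ndufaf6, which had the lowest p in the other comparisons; points are libraries with their replicate numbers, and black lines give the mean and SD of each group. For Ndufaf1, Ndufaf3, Ndufaf7 and Ndufc2 all obesity-prone points lie below all chow points, with replicate 3 lowest.

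By role, log2 fold changes in obesity-prone against chow libraries had a median of -0.53 over the core subunits of the peripheral arm, with 7 of 7 below 0. By edgeR 0 were called, 4 had an unadjusted p below 0.05 and DESeq2 called 2. Without obesity-prone replicate 3 the median was -0.25 and 4 of 7 were below 0. Ndufv1, which binds NADH and flavin, had 413, 427 and 206 CPM in obesity-prone libraries, against 340, 363, 404 and 328 CPM in chow libraries, and a log2 fold change of -0.04 ± 0.22. Obesity-prone replicates 1 and 2 were above every chow library and replicate 3 below. Its partner Ndufv2, which carries an iron-sulfur cluster, had 227, 224 and 115 CPM in obesity-prone and 326, 296, 322 and 239 CPM in chow libraries (log2 fold change -0.65 ± 0.22, edgeR adjusted p = 0.088). Ndufs1, the subunit that carries several iron-sulfur clusters, had a log2 fold change of -0.18 ± 0.21, and of 0.08 without obesity-prone replicate 3.

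The accessory peripheral-arm subunits had a median of -0.44, with 9 of 9 below 0. By edgeR and DESeq2 0 were called, and 4 had an unadjusted p below 0.05. Their range ran from Ndufs6, a zinc-binding subunit, at -0.61 ± 0.21 (edgeR adjusted p = 0.097) to Ndufa9, at the junction of the arms, at -0.20 ± 0.22. Without obesity-prone replicate 3 the median was -0.20, and Ndufa9 stood at 0.08. The proximal membrane-arm subunits had a median of -0.45 with 9 of 9 below 0. By edgeR and DESeq2 1 was called, Ndufc2, and 6 had an unadjusted p below 0.05. Next to Ndufc2, the lowest, stood Ndufa10 as the highest at -0.10 ± 0.22. Without that library the median was -0.21, and Ndufa10 stood at 0.17. The distal membrane-arm subunits had a median of -0.49 with 11 of 11 below 0, from Ndufb11 at -0.59 ± 0.23 to Ndufb7 at -0.40 ± 0.21. By edgeR and DESeq2 0 were called, and 6 had an unadjusted p below 0.05. Without that library the median was -0.23, with 11 of 11 still below 0. Ndufb8, the most abundant subunit, had 304, 312 and 137 CPM in obesity-prone libraries, against 369, 344, 420 and 293 CPM in chow libraries, and the groups overlapped.

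The 8 assembly factors had a median of -0.43, with 7 of 8 below 0, and one of -0.27 without obesity-prone replicate 3. By edgeR 3 were called lower, 6 had an unadjusted p below 0.05 and DESeq2 called 4. In obesity-prone replicate 3 their median difference from the chow mean was -0.75, against -1.06 to -1.27 for the 4 classes of subunits. Ndufaf6, which acts early in assembly, had 8.85, 8.76 and 7.61 CPM in obesity-prone and 10.1, 10.3, 10.3 and 9.91 CPM in chow libraries, a log2 fold change of -0.27 ± 0.10 (edgeR adjusted p = 0.10). Its obesity-prone values lay below all chow values. Ndufaf2 had a log2 fold change of -0.23 ± 0.17. Ndufaf4 was the only assembly factor above 0, at 0.27 ± 0.20 (edgeR adjusted p = 0.40).

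Outside complex I, Ndufa4 had 218, 243 and 115 CPM in obesity-prone libraries, against 305, 294, 346 and 233 CPM in chow libraries (log2 fold change -0.62 ± 0.23, edgeR adjusted p = 0.11). Ndufa4l2, known as a target of hypoxia-inducible factor, had 8.77, 6.83 and 9.0 CPM in obesity-prone and 6.51, 7.36, 6.56 and 7.77 CPM in chow libraries (log2 fold change 0.22 ± 0.12, edgeR adjusted p = 0.28). Its CPM in obesity-prone replicate 3 was the highest of the 10 libraries.

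The separation of the groups was also read in CPM. All 3 obesity-prone values lay below all 4 chow values in 16 of the 47 genes (34%, against 10.6% of all genes), and above them in 0 (9.66% of all genes). Where both obesity-prone replicate 3 and chow replicate 4 were left out, 21 of 47 genes were lower and 1 higher, against 6.39% lower and 6.88% higher over all genes, with a median log2 fold change of -0.29. Chow replicate 4 was the chow library lowest in these same genes, at a median of -0.21, so that leaving it out raises the chow level and favours calls of lower. Without obesity-prone replicate 3 alone 0 were called. The 21 included the 4 named above with Ndufv2, Ndufs6, Ndufb11 and Ndufa4. The 1 was Ndufaf4, at 0.57 ± 0.15 (edgeR adjusted p = 0.035, and 0.035 to 0.84 over all alternatives). For Ndufaf4 both libraries left out oppose a call of higher, so leaving them out favours that call. Its CPM was 43.5, 50.6 and 26.4 in obesity-prone replicates 1 to 3, and 37.6 in chow replicate 4, its highest chow value.

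**Figure D4:**
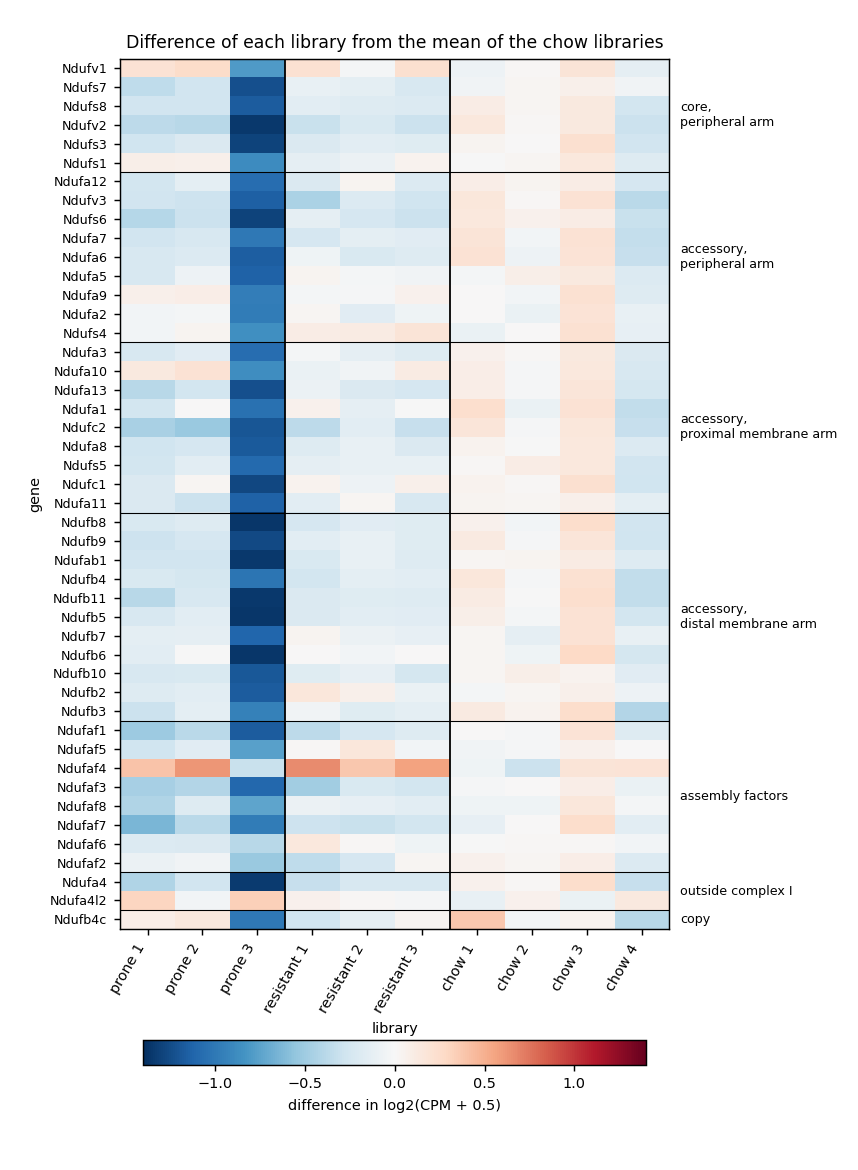
Difference of each library from the chow mean, in log2(CPM + 0.5), for 46 of the 47 genes by class and in order of level; columns are the libraries, red is higher and blue lower than chow. The column of obesity-prone replicate 3 is blue in all rows but Ndufa4l2, and the row of Ndufaf4 is red in the other 5 high-fat diet libraries.

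Obesity-resistant mice had the high-fat diet too, and their libraries were compared with the same chow libraries. By edgeR 0 of the 47 genes were called, against 0.142% of all genes in either direction (0.0966% higher and 0.0457% lower), and 1 (2.13%) had an unadjusted p below 0.05, against 18% of all genes. DESeq2 also called 0 of them, and 5.53% of all genes. The median log2 fold change was -0.15, against -0.01 over all genes, with 38 of 47 below 0 (80.9%, against 50.9% of all genes). It was -0.23 without chow replicate 4, which moved it by over 1.5 times. With the replicate number as a block edgeR again called 0 of the 47 genes, against 1.94% of all genes (382, against 28 without the block). In that fit 1 had an unadjusted p below 0.05, and the median was -0.23. Chow replicate 4 is the only library of its block, so the blocked median does not draw on it either.

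The 1 gene was Ndufaf4, which had 52.2, 42.8 and 48.9 CPM in obesity-resistant libraries, against 31.4, 26.5, 37.2 and 37.6 CPM in chow libraries. All obesity-resistant values lay above all chow values, and the log2 fold change was 0.53 ± 0.20 (edgeR adjusted p = 0.21). Without obesity-prone replicate 3 and chow replicate 4 it was 0.61 ± 0.13 (edgeR adjusted p = 0.023, and 0.023 to 0.50 over all alternatives). Chow replicate 4 held the highest chow value of Ndufaf4, so leaving it out favours a call of higher. In that fit 9 genes were lower and 1 higher, against 6.04% lower and 5.09% higher of all genes. The obesity-resistant values lay below all chow values in 4 of 47 genes (8.51%), a share below the 9.71% of all genes. They were Ndufaf3, Ndufaf7, Ndufaf8 and the core subunit Ndufs7. Ndufaf3 had 12, 14.6 and 14.1 CPM in obesity-resistant libraries (log2 fold change -0.33 ± 0.16, edgeR adjusted p = 0.32) and Ndufaf7 had 17.5, 17.3 and 17.9 CPM (-0.30 ± 0.15, edgeR adjusted p = 0.31). Those chow values are the ones given above, since both diet groups were set against the same chow libraries.

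The comparison of obesity-prone with obesity-resistant libraries set mice on the same diet against each other. By edgeR 0 of the 47 genes and 0.0% of all genes were called, with 3 of the 47 (6.38%) and 15.4% of all genes at an unadjusted p below 0.05. DESeq2 called 2.93% of all genes and 0 of the 47. Without obesity-prone replicate 2 edgeR called 4.31% of all genes and 0 of the 48 Nduf genes tested in that fit. Of these 48, 20 (41.7%) had an unadjusted p below 0.05, against 24.2% of all genes. In the fit of all libraries the median log2 fold change of the 47 genes was -0.34, against -0.01 over all genes. It was below 0 in 46 of 47 (97.9%, against 51.1% of all genes). Without obesity-prone replicate 3 the median of the Nduf genes was -0.09. The obesity-prone values lay below all obesity-resistant values in 20 of 47 genes (42.6%, against 9.75% of all genes) and above them in 0 (9.99% of all genes). Ndufaf6 had the lowest p, with 8.85, 8.76 and 7.61 CPM in obesity-prone libraries, against 11.3, 10.3 and 9.73 CPM in obesity-resistant libraries (log2 fold change -0.31 ± 0.10, edgeR adjusted p = 0.25).

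Over the 6 high-fat diet libraries together, 4 genes lay below all 4 chow values (8.51%, against 4.12% of all genes) and 0 above (3.98% of all genes). They were Ndufaf3, Ndufaf7, Ndufaf8 and Ndufs7, where Ndufaf8 and Ndufs7, which are outside the rule for named genes, were picked after their values were seen. Ndufs7, which carries the iron-sulfur cluster nearest to ubiquinone, had 150, 160 and 81.5 CPM in obesity-prone and 179, 175 and 164 CPM in obesity-resistant libraries, against 186, 196, 202 and 185 CPM in chow libraries. Against chow its log2 fold change was -0.56 ± 0.19 in the obesity-prone group (edgeR adjusted p = 0.093) and -0.16 ± 0.19 in the obesity-resistant group (edgeR adjusted p = 0.71). Ndufaf8, the partner of Ndufaf5, had 4.36, 5.25 and 3.40 CPM in obesity-prone, 5.62, 5.48 and 5.37 CPM in obesity-resistant and 5.73, 5.71, 6.73 and 5.86 CPM in chow libraries.

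The genes were also compared with each other. When each gene's difference from the chow mean was set against the median of the 47 genes in the same library, Ndufaf4 stood at 0.63, 0.79 and 0.80 in obesity-prone and 0.79, 0.50 and 0.72 in obesity-resistant libraries, against -0.11, -0.31, 0.01 and 0.40 in chow libraries. Ndufv1 stood between 0.10 and 0.44 in the high-fat diet libraries, against -0.11 to 0.08 in chow libraries. Ndufs4, an accessory subunit that holds the NADH-binding module in place, stood between 0.19 and 0.34, against -0.14 to 0.09 in chow libraries. Ndufa9 stood between 0.10 and 0.31, against -0.04 to 0.05 in chow libraries. These 4 (8.51%) lay higher in all 6 high-fat diet libraries than in all 4 chow libraries on this relative scale. By the same measure 8.84% of all genes lay higher and 0.31% lower, against 3.98% and 4.12% in CPM. The median of the 47 genes was below 0 in all 6 high-fat diet libraries, so this scale raises other genes there. The 8.84% is thus no fair background, and nothing is concluded from the 8.51%. The lowest mean over the high-fat diet libraries on this scale was that of Ndufc2, at -0.18. In obesity-prone replicate 3 Ndufa4l2 stood at 1.45, Ndufaf6 at 0.72 and Ndufaf2 at 0.60.

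The balance of 2 pairs of partners, picked after their values were seen, was read from the FPKM values. The FPKM of Ndufaf4 divided by that of Ndufaf3, which bind each other in early assembly, was 1.38, 1.62 and 1.34 in obesity-prone and 1.73, 1.13 and 1.37 in obesity-resistant libraries, against 0.698, 0.609, 0.759 and 0.873 in chow libraries. Each high-fat diet library, obesity-prone replicate 3 among them, thus held more Ndufaf4 than Ndufaf3 per length, and each chow library less. The FPKM of Ndufv1 divided by that of Ndufv2, which adjoin at the NADH-binding tip, was 1.74, 1.82 and 1.72 in obesity-prone and 1.68, 1.33 and 1.68 in obesity-resistant libraries, against 0.995, 1.17, 1.2 and 1.31 in chow libraries. The ranges did not overlap, though the lowest obesity-resistant and the highest chow value lay close. Ndufaf4 and Ndufv1 are also among the genes that lay higher on the relative scale above, so these ratios are not separate observations. The share of other gene pairs that separate the libraries as well was not computed, and nothing is concluded from the ratios.

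Other respiratory chain genes were low in the same library. In obesity-prone replicate 3 the median difference from the chow mean was -0.92 for 8 genes of complex II, -1.18 for 9 of complex III, -1.23 for 13 of complex IV and -1.10 for 15 of complex V, beside -1.11 for the Nduf genes. In obesity-prone replicates 1 and 2 these medians lay between -0.31 and -0.03. The lists hold genes of few counts, among them Cox6a2 of complex IV (0.028 to 2.61 CPM) and Atp5a1 of complex V (0.163 to 2.88 CPM). Atp5b, also of complex V, stood at 1920 to 3780 CPM. Whether the counts under the name Atp5a1 hold all reads of that gene was not tested. The median log2 fold change in obesity-prone against chow libraries was -0.42 for complex II, -0.41 for complex III, -0.45 for complex IV and -0.41 for complex V, with 0 genes called by edgeR. Without that library these medians were -0.17, -0.11, -0.17 and -0.23. Unadjusted p-values below 0.05 were present for 4, 1, 1 and 10 genes in that order, against 28.1% of all genes, and DESeq2 called 1, 1, 0 and 2. For complexes III and IV that count is below the share of all genes. The lowest p in each was that of Sdhaf1, a complex II assembly factor (-0.67 ± 0.23, edgeR adjusted p = 0.099), Uqcrb of complex III (-0.65 ± 0.20, 0.072), Cox7b of complex IV (-0.59 ± 0.24, 0.14) and Atp5g2, a c subunit of complex V (-0.51 ± 0.15, 0.060).

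The complex I assembly factors without an Nduf symbol had a median difference of -0.52 over 11 genes in that library. Their log2 fold changes had a median of -0.28 (-0.14 without that library), 1 had an unadjusted p below 0.05, and edgeR and DESeq2 called 0. Ecsit, which works with Ndufaf1, had 68.6, 75.8 and 37.9 CPM in obesity-prone and 82.3, 87.0, 93.6 and 82.8 CPM in chow libraries (log2 fold change -0.51 ± 0.19, edgeR adjusted p = 0.12). The 12 other mitochondrial proteins, used as a guide to mitochondrial content, had a median of -0.83 in obesity-prone replicate 3 and of -0.32 over log2 fold changes (-0.13 without that library), with 0 called by edgeR, 5 at an unadjusted p below 0.05 and 1 called by DESeq2. The lowest p was that of Phb2, a prohibitin of the inner membrane (-0.59 ± 0.17, edgeR adjusted p = 0.058).

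The 10 brown adipocyte markers had a median of -1.10 in obesity-prone replicate 3 and of -0.44 over log2 fold changes in obesity-prone against chow libraries (-0.17 without that library). Cox7a1 and Cox8b are also in the complex IV list, and Ppargc1a in that of the regulators below, so these medians are not separate observations. By edgeR 1 was called, Adrb3, the adrenergic receptor that activates brown fat, which was higher by 1.07 ± 0.15 on the log2 scale (adjusted p = 0.011, and 0.018 without replicate 3).

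Among 16 regulators of mitochondrial genes the median log2 fold change in obesity-prone against chow libraries was -0.09, and 2 were called, both higher. Yy1 had 66.0, 64.7 and 58.0 CPM in obesity-prone libraries and 55.1, 57.4 and 54.2 CPM in obesity-resistant libraries, against 44.2, 42.0, 44.3 and 44.3 CPM in chow libraries. Its log2 fold change was 0.53 ± 0.07 in obesity-prone (edgeR adjusted p = 0.0092, and 0.0072 without replicate 3) and 0.35 ± 0.07 in obesity-resistant libraries (edgeR adjusted p = 0.077, and 0.036 without obesity-prone replicate 3), and no high-fat diet value overlapped the chow values. For Pprc1, a coactivator of the PGC-1 family, it was 0.52 ± 0.14 in the obesity-prone group (edgeR adjusted p = 0.049, and 0.12 without replicate 3).

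**Figure D5:**
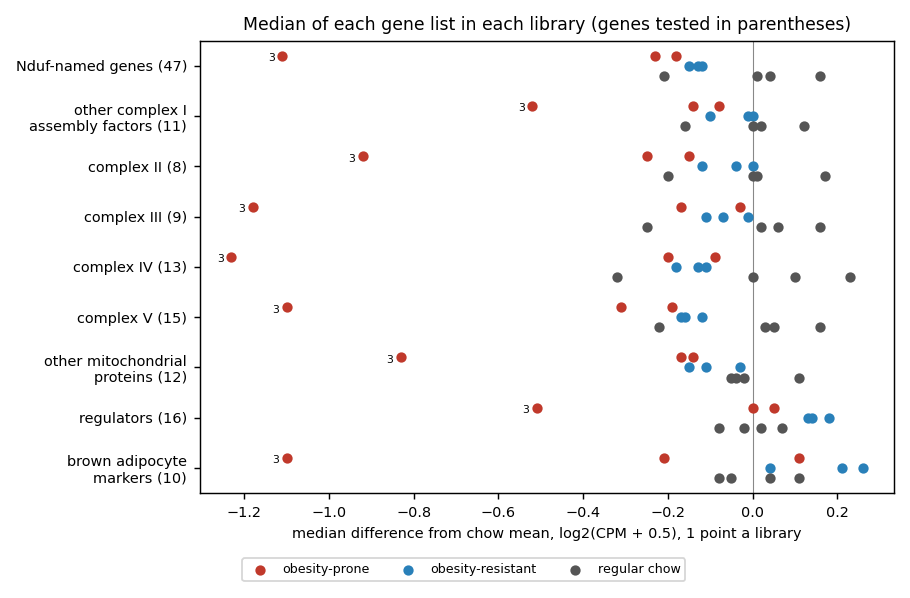
Median difference from the chow mean, in log2(CPM + 0.5), of each gene list in each library, 1 point a library; the 3 marks obesity-prone replicate 3 and the numbers in parentheses the genes tested. That library lies lowest in every list shown, from -0.51 for regulators to -1.23 for complex IV.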

How the data were processed

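RNA of 10 brown adipose tissue libraries was sequenced. Per the labels' protocols, Bowtie2 2.2.5 placed the reads on a company-built gene set, and RSEM 1.2.12 quantified genes. HISAT2 2.0.4 and the build GRCm38.p6 are named in the submitters' processing notes. The authors deposited RSEM expected counts, not normalised, of which 30.4% are not whole, and FPKM values of each gene, on a scale that followed the count totals within 0.159%. The 6 columns of group means were not used. Genes without a name held 23.7% of the counts.

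Expected counts were rounded and tested with edgeR 4.0.16 (R 4.3.3) after filterByExpr (minimum count 10) and TMM factors, by a quasi-likelihood fit (robust) in which each of the 3 groups had a coefficient (10 libraries, 7 residual degrees of freedom), and Benjamini-Hochberg adjustment over 19676 genes. A gene was called at an adjusted p below 0.05. The steps were tested on simulated data. CPM uses TMM library sizes. Library pairs of a group differed by more than sampling noise (mean chi-square per gene of 21.5 or more). Depth limits genes of few counts.

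The members, lists and alternatives were chosen with earlier results of these data known. Named genes were those called, the highest and lowest of each class by FPKM and by log2 fold change in obesity-prone against chow libraries, the lowest p of each comparison, Ndufa4, Ndufa4l2, those the filter removed, and in other lists the 2 lowest p and Ucp1; of these others, those the text needed are given. Gene positions and promoters are from RefSeq (GRCm38.p6); neighbours and transcripts are from GENCODE and were compared with BLAST 2.17.0 (at least 90% identity over at least 50% of the transcript). Alternatives were DESeq2 1.42.0, limma 3.58.1 on log2(FPKM + 0.5) and log2(FPKM + 0.1), other factors and filters, only the 2 groups compared, a skeletal muscle score, a replicate block, and leaving out libraries. For 1 of the 47 genes, values of its own are not reported here. The labels do not say what a replicate number marks. Between obesity-resistant and chow libraries, deviations from the group means correlated above 0.1 in all 3 same-numbered pairs (r from 0.12 to 0.189). Pairs with other numbers reached 0.255, so these correlations do not show which libraries are paired, if any. The main fit has no block. The replicate block, which runs over all 10 libraries, is given as an alternative only.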

Additional observations from a re-analysis of the deposited data

Results flagged for a closer look

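Ndufaf8, the partner of the assembly factor Ndufaf5, had 6.73 CPM in chow replicate 3, far from the other chow libraries at 5.73, 5.71 and 5.86 CPM. The gap of that value to its nearest neighbour, divided by the range of the group, was 0.846, above Dixon's critical value for 4 samples. It was the 1 value so marked among 47 genes tested, and chance marks about 1 in 20. Chow replicate 3 also had the highest median of the chow group over the 47 genes, at 0.16.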

How the results depend on the processing

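For obesity-prone against chow libraries, the 1377 genes and 4 Nduf genes called lower by edgeR became 2971 and 7 with DESeq2, 66 and 0 with only the 2 groups in the fit, 634 and 0 with the skeletal muscle score (with an Nduf median of -0.46 in both, as in the fit of all groups), and 2635 and 21 (1 more higher) without obesity-prone replicate 3 and chow replicate 4 together. Without a filter 932 genes were called, with 2 Nduf genes lower. With limma on FPKM 1026 genes (constant 0.5) and 1074 genes (constant 0.1) were called, with 1 Nduf gene lower under either constant. Leaving out 1 library gave 76 to 3040 genes, 0 to 7 Nduf genes lower and a median of -0.62 to -0.22. For obesity-resistant against chow libraries, 28 genes became 1072 with DESeq2, 76 with no filter, 68 with the stricter filter, 391 with only the 2 groups, 55 with the muscle score, and 2212 (9 Nduf genes lower, 1 higher) without both libraries; leaving out 1 library gave 3 to 864, and an Nduf median of -0.23 to -0.10. That median was -0.09 with limma on FPKM. For obesity-prone against obesity-resistant libraries, 0 genes became 530 with DESeq2 and 0 to 871 with 1 library left out (median -0.49 to -0.09). The cause of these moves was not tested. No Nduf gene was called in this last comparison under any alternative run. Of 1512 single-gene values under alternatives, for 24 named genes, 0 turned direction as a called value. With few genes called, such a turn could hardly arise. Values that were not called did change sign, as for Ndufs1, Ndufa9 and Ndufa10 without obesity-prone replicate 3.

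The replicate numbers of obesity-prone libraries were not read as pairs either. Same-numbered deviations correlated above 0.1 in 0 of 3 pairs with chow and in 1 of 3 with obesity-resistant libraries. With the replicate block, 2 of 47 Nduf genes (Ndufaf7 and Ndufc2, 4.26%) were lower in obesity-prone against chow libraries. In that comparison 1582 of the 19676 genes tested were called in either direction. In obesity-resistant against chow libraries 382 genes were called with the block.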
